A study of Mus musculus with 3 samples.

Results

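Smooth muscle cells were looked for among the enteric neurons of *Ednrb*-/- mice as cells with high RNA of both *Acta2* and *Myh11*. The cells were selected on these measured levels: the deposited value, the natural log of 1 + UMIs per 10000, had to reach 3.0 for *Acta2* and 2.5 for *Myh11*. UMIs are unique molecular identifiers, each counting 1 captured RNA molecule, and the thresholds equal 19.1 and 11.2 UMIs per 10000. Of the 2060 deposited cells, 93 met the rule: 62 of 354 in mouse 1, 23 of 1050 in mouse 2 and 8 of 656 in mouse 3. They are called Acta2+ Myh11+ cells here, and they were compared with the remaining cells of the same mouse, called other cells.

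The study took 3 mice at postnatal day 14, all lacking *Ednrb*, the endothelin receptor type B gene whose loss leaves the distal gut without ganglia, as in Hirschsprung disease. The strain label was C57BL/6. All of them carried a GCaMP5-tdTomato reporter switched on by Wnt1-Cre, which marks cells descended from the neural crest. Sorted tdTomato-positive cells came from the longitudinal muscle and myenteric plexus of the small intestine, with 1 10x library per mouse. There was 1 condition, so no comparison of genotypes was made, and the authors had removed cells that they did not class as neurons. No row for tdTomato or GCaMP5 was found in the table, so the reporter was not checked, and *Ednrb* UMIs do not show which part of the gene was read. Median depth was 3538.5 UMIs per Acta2+ Myh11+ cell in mouse 1, 10366 in mouse 2 and 3697 in mouse 3, against 3790, 9579 and 9628 in other cells. Of the cell barcodes, 2 occurred in more than 1 library, and 1 Acta2+ Myh11+ cell, in mouse 3, carried such a barcode.

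Visceral smooth muscle contracts when calcium and calmodulin activate myosin light chain kinase, which phosphorylates the regulatory light chain and lets smooth muscle myosin pull on actin. Serum response factor and its cofactor myocardin drive many contractile genes through a DNA motif called the CArG box. In the gut wall these cells arise from mesoderm. They receive signals from enteric neurons and give them growth factors and matrix.

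The promoters of 2 contractile genes are shown because a search for that motif found a match in them. RefSeq windows of 300 bases on GRCm38.p6, from 250 before to 50 after the start, were at hand for 10 of the 15 genes of the smooth muscle marker list. The exact motif, searched on both strands, was in 1 of the 10 genes, *Myl9*, and in 1.81% of 27025 genes with a window. A looser form in which at least 5 of the 6 middle bases are A or T, chosen after the exact search, was in 2 of the 10, *Acta2* and *Myl9*, and in 11.3% of all genes. Of 13 neuron list genes with a window, 1 held the exact form and 2 the looser one. The 250 bases before each start are given 5′ to 3′, with the matches in capitals. They begin 84 and 34 bases before the start of *Acta2* (chr19:34255374-34255623, minus strand) and 161 and 99 bases before that of *Myl9* (chr2:156775214-156775463, plus strand). A match is a run of letters, and no binding was measured.
Acta2: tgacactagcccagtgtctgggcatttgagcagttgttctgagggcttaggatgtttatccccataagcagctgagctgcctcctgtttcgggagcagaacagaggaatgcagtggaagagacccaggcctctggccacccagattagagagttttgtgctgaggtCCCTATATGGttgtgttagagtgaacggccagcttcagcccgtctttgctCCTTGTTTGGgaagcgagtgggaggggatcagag
Myl9: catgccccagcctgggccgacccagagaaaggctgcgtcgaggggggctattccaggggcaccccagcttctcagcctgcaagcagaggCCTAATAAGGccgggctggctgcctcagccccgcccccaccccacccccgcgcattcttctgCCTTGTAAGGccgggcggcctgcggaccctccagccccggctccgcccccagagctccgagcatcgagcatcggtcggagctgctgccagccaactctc

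The rule gave very different shares in the 3 libraries. Acta2+ Myh11+ cells were 17.5% of the cells of mouse 1 (95% Clopper-Pearson interval 13.7% to 21.9%), 2.19% of mouse 2 (1.39% to 3.27%) and 1.22% of mouse 3 (0.528% to 2.39%). The mean was 6.97% ± 9.14 (SD, n = 3), and without mouse 1 it was 1.70%. The share of mouse 1 was above both other intervals, while those of mice 2 and 3 overlapped. All intervals given here are 95% intervals that cover counting error only. A further 43 cells passed the *Acta2* threshold alone, 17 of them in mouse 1, and 19 passed the *Myh11* threshold alone, 5 of them in mouse 1. Near the *Acta2* threshold, the lowest deposited values inside were 3.01, 3.03 and 3.05 and the highest outside were 2.96, 2.95 and 2.86. For *Myh11* they were 2.55, 2.64 and 2.69 inside and 2.48, 2.46 and 2.45 outside. These values chose the cells, so they and the other genes of the same cells are described with no test.

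The label was checked with lists of 15 smooth muscle genes and 22 neuron genes. Summed over the Acta2+ Myh11+ cells, the smooth muscle list stood at 381, 296 and 231 UMIs per 10000 in mice 1, 2 and 3, against 15.1, 10.4 and 10.7 in other cells. The folds were 25.3 (24.1 to 26.6), 28.4 (27.5 to 29.2) and 21.6 (20.2 to 23.1). Leaving out *Acta2* and *Myh11*, the mean log2 fold was 4.59 ± 0.16 (SD, n = 3 mice). The folds were of like size in the 3 mice, but the same thresholds on 2 genes of this list chose the cells in each. Nothing is therefore read from that likeness. The neuron list differed more between mice. It stood at 43.2 UMIs per 10000 in mouse 1 against 148 in other cells, a fold of 0.292 (0.275 to 0.310). In mouse 2 it stood at 80.9 against 127, a fold of 0.638 (0.611 to 0.665), and in mouse 3 at 78.0 against 125, a fold of 0.626 (0.560 to 0.697).

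Cell by cell, the Acta2+ Myh11+ cells of mouse 1 fell apart on the neuron list. They held either at most 33.2 UMIs per 10000 of it or at least 56.0, with none in between, and all 31 cells of mice 2 and 3 held 48.4 to 160.0. Below the 5th percentile of other cells lay 27 of the 62 cells of mouse 1, 0 of 23 in mouse 2 and 0 of 8 in mouse 3. The label of smooth muscle cells therefore goes against the neuron genes in mice 2 and 3 and in 19 cells of mouse 1, so the cells keep the name of the rule.

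**Figure D1:**
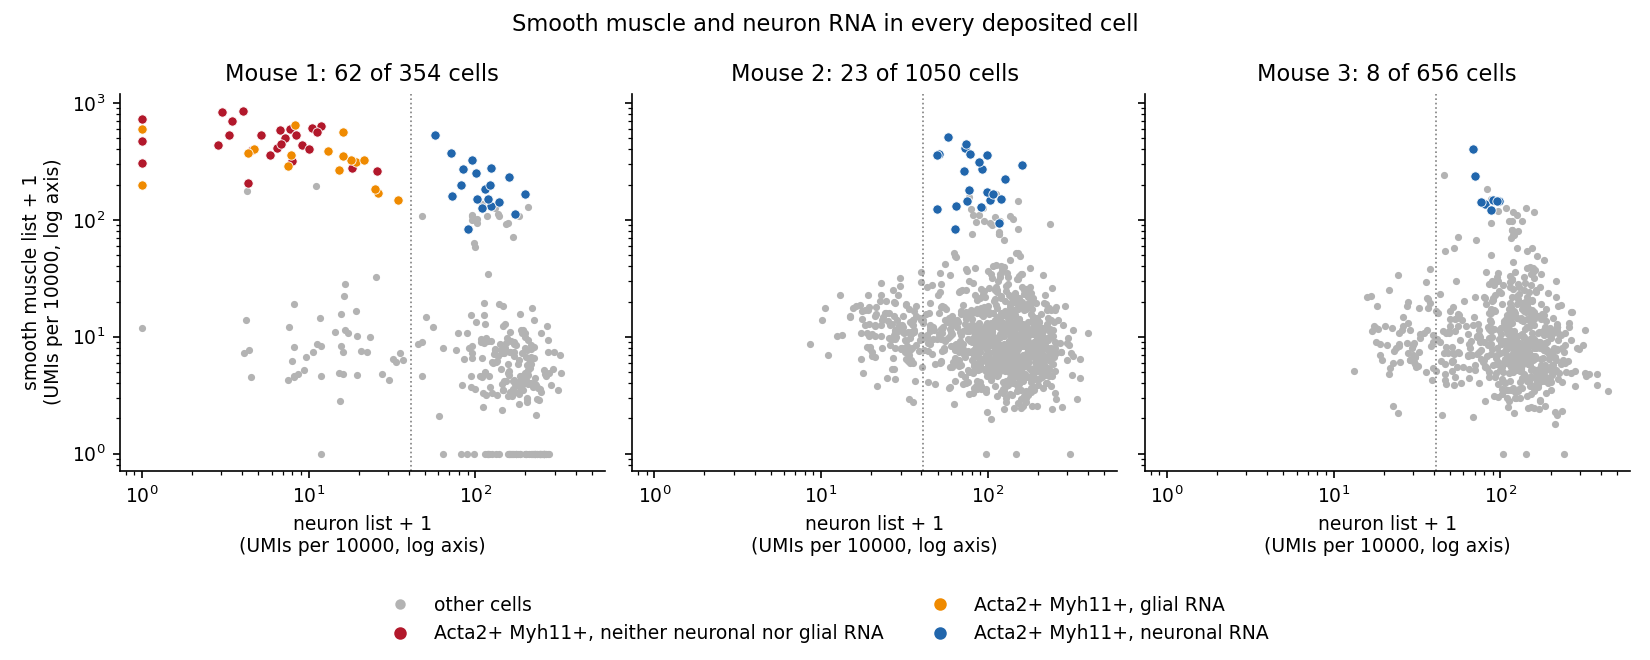
Every deposited cell by its summed UMIs per 10000 of the neuron and smooth muscle lists on log axes, with 1 panel per mouse, other cells in grey and Acta2+ Myh11+ cells in colour. Coloured points lie below 40 UMIs per 10000 of the neuron list, the dotted line, in mouse 1 and in neither other mouse.

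Below that gap, the cells of mouse 1 fell apart once more on a list of 14 enteric glia genes, with values of at most 5.70 or at least 16.3 UMIs per 10000. Cuts at 40 for the neuron list and 10 for the glia list, set after the values were seen, gave 3 kinds in mouse 1. There were 26 cells with neither neuronal nor glial RNA (41.9%), 17 with glial RNA (27.4%) and 19 with neuronal RNA (30.6%). These are ranges of a measured sum and not cell types. Among other cells, 47 in mouse 1, 132 in mouse 2 and 67 in mouse 3 also lay below the neuron cut.

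**Figure D2:**
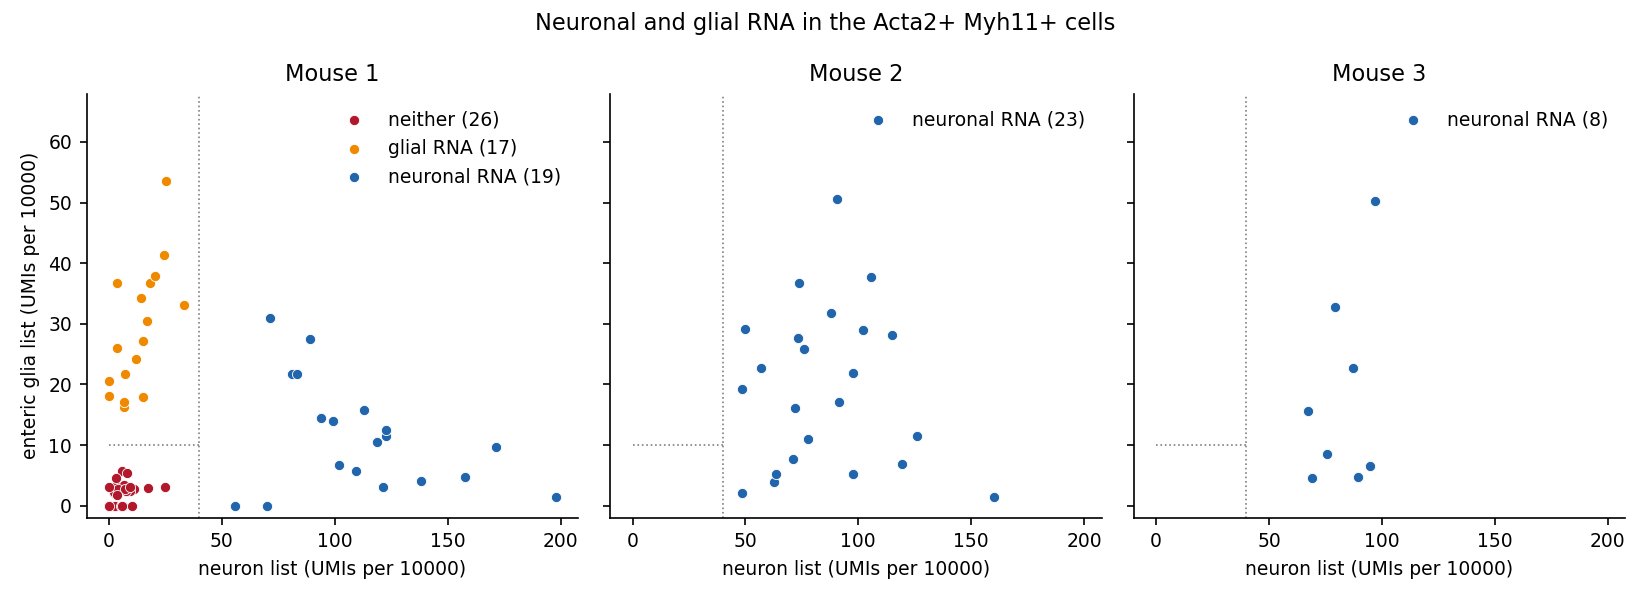
The 93 Acta2+ Myh11+ cells by summed UMIs per 10000 of the neuron list and of the enteric glia list, with 1 panel per mouse and dotted lines at the cuts of 40 and 10. Mouse 1 holds 26 cells with neither RNA, 17 with glial and 19 with neuronal RNA, and the 31 cells of mice 2 and 3 all lie above the neuron cut.

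The 26 cells with neither neuronal nor glial RNA, as the cuts define them, had the highest smooth muscle list of the kinds in mouse 1. Their smooth muscle list summed to 514 (502 to 527) UMIs per 10000, with a range over cells from 206 to 859. The neuron list stood at 5.76 (4.52 to 7.23) and the glia list at 2.02 (1.32 to 2.97), against 148 and 22.99 in other cells of mouse 1. *Elavl4*, an RNA-binding protein of neurons, and *Tubb3*, neuronal tubulin, had 1 UMI each in the 26 cells. The glial receptor *Erbb3* and the glial calcium-binding protein *S100b* had 0. The neuron and glia lists, which hold these genes, set the 26 cells apart, so these low values only describe the cuts. Scrublet, which scores cells for likeness to simulated doublets, called none of the 26.

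The 17 cells with glial RNA carried the smooth muscle list at 355 (339 to 370.2) UMIs per 10000 and the glia list at 28.9 (24.7 to 33.6). *Sox10*, the transcription factor of crest progenitors and glia, stood at 3.25 (1.96 to 5.07) in them and at 0.234 (0.0482 to 0.683) in the cells with neither RNA. *Fabp7*, a fatty acid binding protein of glia, stood at 4.27 (2.77 to 6.31) and 0.156 (0.0189 to 0.563), while *Elavl4* had 0 UMIs in the 17 cells. Both genes are in the list that set these kinds apart, so their values only describe the cut. Scrublet called 2 of the 17 doublets.

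The 19 cells of mouse 1 with neuronal RNA held the smooth muscle list at 199.6 (190.2 to 209) UMIs per 10000 and the neuron list at 120.1 (113 to 128). The neuron list stood at 80.9 (77.5 to 84.4) in the cells of mouse 2 and at 78.0 (69.9 to 86.8) in those of mouse 3. *Stmn2*, a tubulin-binding protein of growing axons, stood at 21.3 (18.3 to 24.6) in the 19 cells, at 17.7 (16.2 to 19.4) in mouse 2 and at 12.1 (9.07 to 15.9) in mouse 3. *Stmn2* is a gene of the neuron list. That list set the 19 cells apart, so both values in them only describe the cut. Scrublet called 4 of the 19 doublets and, in mice 2 and 3, 0 of 31. It simulates doublets from the deposited cells of the same mouse. In mice 2 and 3 no Acta2+ Myh11+ cell lay below the neuron cut to stand for muscle alone. The 0 of 31 therefore does not tell whether these cells were single.

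The 8 cells of mouse 3 held both programs at once. Their smooth muscle list stood at 121, 136, 140.4, 144, 144, 147, 235 and 401 UMIs per 10000. In the same order of cells, their neuron list stood at 87.2, 79.4, 75.7, 97.1, 94.9, 89.2, 69.1 and 67.2. The lowest neuron value of these 8 cells went with the highest smooth muscle value. In mouse 2 the smooth muscle list ran from 82.4 over a median of 222 to 510 and the neuron list from 48.4 over 77.7 to 160.0.

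Depth was measured beside these mixtures. In mouse 1 the median was 3986.5 UMIs per cell with neither RNA, 3298 with glial RNA and 3280 with neuronal RNA, and no cell of that mouse passed 15000 UMIs. In mouse 2, 9 of 23 Acta2+ Myh11+ cells passed 15000 UMIs (39.1%, 19.7% to 61.5%), against 138 of 1027 other cells (13.4%, 11.4% to 15.7%). In mouse 3, 0 of 8 did (0% to 36.9%), against 107 of 648 other cells (16.5%, 13.7% to 19.6%). The median mitochondrial share was 4.10% in the Acta2+ Myh11+ cells of mouse 1 and 2.56% in other cells, 2.20% and 2.70% in mouse 2, and 1.75% and 2.80% in mouse 3. Smooth muscle RNA was also found outside the chosen cells, at a median of 4.13, 8.13 and 7.61 UMIs per 10000 per other cell. The part of cells captured together, and of RNA free in the suspension, was not tested.

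Of the genes of the rule, *Acta2* (chromosome 19, 34241090 to 34255590, GRCm38), the smooth muscle alpha actin, stood at 79.4, 79.0 and 45.5 UMIs per 10000 in the Acta2+ Myh11+ cells of mice 1, 2 and 3. Other cells held 3.68, 2.49 and 2.58. *Myh11* (chromosome 16, 14194535 to 14291372), the smooth muscle myosin heavy chain, stood at 56.2, 31.6 and 32.7, against 1.24, 1.06 and 1.06. The ratio of *Myh11* to *Acta2* UMIs was 0.707 in the chosen cells of mouse 1 and 0.335 in its other cells, 0.3997 and 0.425 in mouse 2, and 0.718 and 0.411 in mouse 3. The thresholds on both genes bear on this ratio in the chosen cells.

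The other 4 genes by which the cells were labelled were less even between mice. *Npnt* (chromosome 3, 132881745 to 132950291), the matrix protein nephronectin, stood at 2.32 (1.78 to 2.96) UMIs per 10000 in mouse 1, 0.979 (0.639 to 1.43) in mouse 2 and 0.467 (0.0566 to 1.69) in mouse 3, against 0.0399, 0.0258 and 0.0283 in other cells. *Ogn* (chromosome 13, 49608046 to 49624501), the small proteoglycan osteoglycin, stood at 3.68 (2.99 to 4.47), 1.39 (0.981 to 1.92) and 0.467 (0.0566 to 1.69), against 0.144, 0.0416 and 0.0659. Both had their highest level in mouse 1, where the interval lay above that of mouse 2. *Myocd* (chromosome 11, 65176561 to 65269989), which encodes myocardin, had 24, 7 and 1 UMIs, or 0.882 (0.565 to 1.31), 0.264 (0.106 to 0.543) and 0.234 (0.00591 to 1.30) per 10000. *Foxf1* (chromosome 8, 121084386 to 121088144), a transcription factor of gut mesenchyme, had 27, 3 and 0 UMIs. That is 0.993 (0.654 to 1.44) per 10000 in mouse 1 and 0.113 (0.0233 to 0.330) in mouse 2, while 0 UMIs in mouse 3 allow up to 0.701. Within mouse 1 *Foxf1* stood at 1.01 (0.539 to 1.73) in the cells with neither RNA, 1.88 (0.939 to 3.36) in those with glial RNA and 0.353 (0.0727 to 1.03) in those with neuronal RNA.

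**Figure D3:**
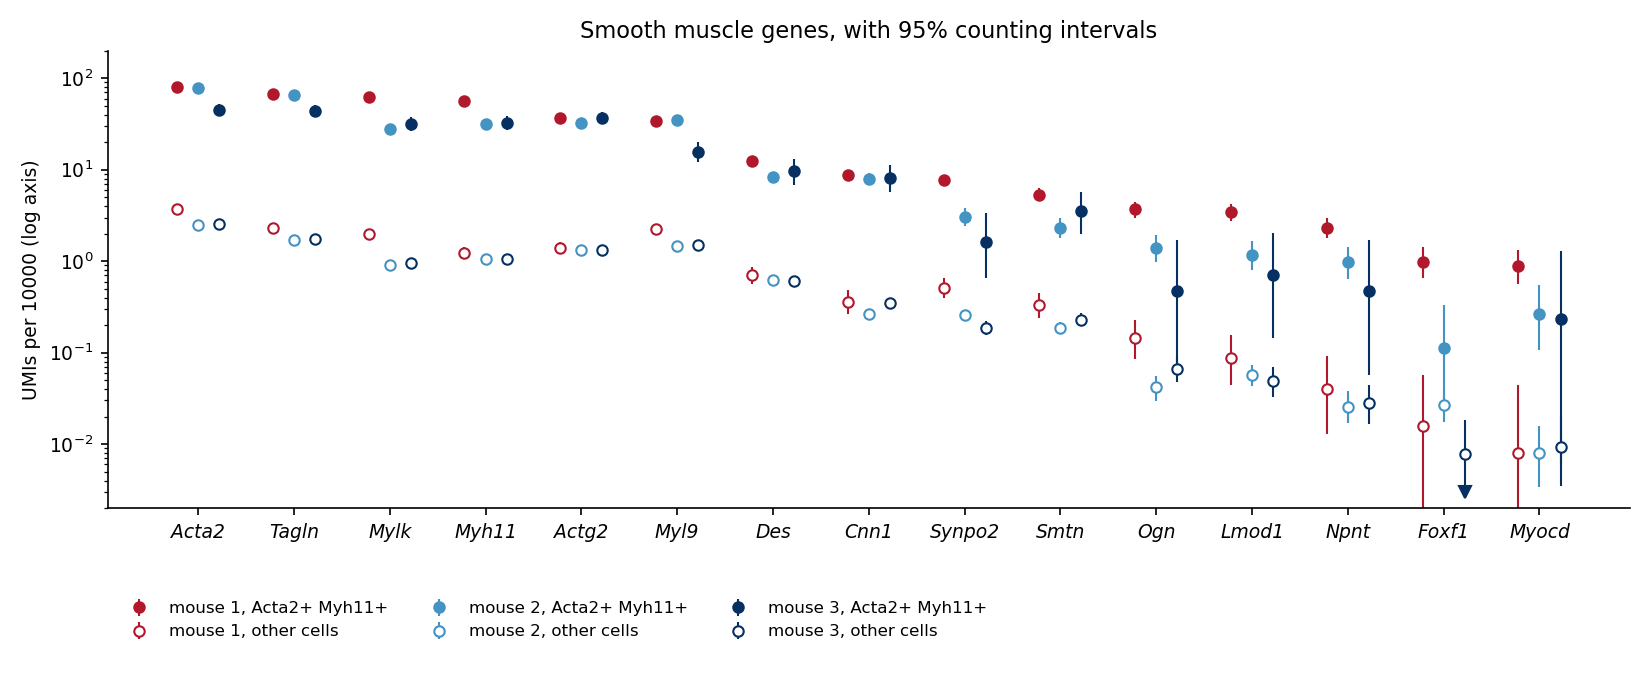
UMIs per 10000 (log axis) of the 15 smooth muscle genes in Acta2+ Myh11+ cells and in other cells of each mouse, with 95% Poisson intervals, a triangle for 0 UMIs (*Foxf1* in mouse 3), and some bars running below the axis. For every gene and mouse other than that one, the Acta2+ Myh11+ cells lie above the other cells.

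A gene was counted as higher or lower at a difference of 2-fold or more in UMIs per 10000, among genes with at least 20 UMIs over all cells of a mouse. The share of all genes higher or lower in all 3 mice was not counted. Counts of list genes in all 3 mice therefore have no such share beside them. In mouse 1 all 15 smooth muscle genes were higher, where 8.44% of all 8924 genes were. In mouse 2, 14 of 14 measured were higher, where 6.34% of all 12581 genes were, and in mouse 3, 13 of 13, where 18.1% of all 11883 genes were. The rule used these cells, so nothing is read from the counts. *Actg2*, the enteric gamma actin, stood at 37.0, 32.2 and 36.9 UMIs per 10000 against 1.40, 1.32 and 1.33. *Tagln*, the actin-binding protein transgelin, stood at 66.5, 65.3 and 44.4 against 2.31, 1.69 and 1.77, and *Mylk*, which encodes myosin light chain kinase, at 63.0, 27.7 and 31.5 against 1.99, 0.914 and 0.958. Within mouse 1 *Actg2* stood at 55.7 (51.7 to 59.9) in the cells with neither RNA, 26.8 (22.8 to 31.4) in those with glial and 15.8 (13.2 to 18.7) in those with neuronal RNA.

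The neuron list ran the other way and differed between mice. All 22 genes were lower in mouse 1, where 21.5% of all genes were. In mouse 2, 6 of 22 were lower, where 14.8% of all genes were, and in mouse 3, 6 of 22, where 6.08% were, with 1 gene higher. *Chga*, a protein of secretory granules, was lower in all 3 mice, at 0.404 against 0.933 in mouse 1, 0.753 against 1.72 in mouse 2 and 0 against 1.65 in mouse 3, where 0 UMIs allow up to 0.701. *Uchl1*, a deubiquitinase abundant in neurons, stood at 2.76 against 11.5 in mouse 1, 8.36 against 10.4 in mouse 2 and 7.47 against 9.02 in mouse 3, so it was lower by this measure in mouse 1 only. Of the glia list, 7 of 13, 2 of 14 and 1 of 14 measured genes were lower in the 3 mice and 0, 0 and 2 higher. Among all genes, 21.5%, 14.8% and 6.08% were lower and 8.44%, 6.34% and 18.1% higher. The lower glia genes in mice 2 and 3 were near the share of all genes, so nothing is read from them.

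Transmitter genes differed between the kinds of mouse 1. These kinds were cut on the neuron list, so the levels of neuronal transmitter genes in them are only described. The transmitter list of 20 genes also held *Etv1* and *Bnc2*, which mark groups of enteric neurons and are not transmitter genes. Summed over the list, the genes stood at 0.779 (0.373 to 1.43) UMIs per 10000 in the cells with neither RNA, at 1.03 (0.376 to 2.23) in those with glial RNA and at 79.2 (73.4 to 85.4) in those with neuronal RNA. Other cells of mouse 1 held 56.5. The cells were uneven: the median of the 19 was 21.7 and the highest 387. *Gal*, the neuropeptide galanin, gave 330 UMIs in these 19 cells, 288 of them in 1 cell. In mouse 2 the list stood at 44.0 (41.6 to 46.6) against 104, and in mouse 3 at 55.4 (48.5 to 62.9) against 68.8. Lower were 13 of 17 measured genes in mouse 1, 10 of 18 in mouse 2 and 2 of 18 in mouse 3, where 21.5%, 14.8% and 6.08% of all genes were. The gene lower in all 3 was *Tac1*, the substance P precursor, at 0.551 against 2.87 in mouse 1, 1.17 against 3.38 in mouse 2 and 0.934 against 3.06 in mouse 3. *Nos1*, the enzyme that makes nitric oxide, had 1, 0 and 47 UMIs in the 3 kinds of mouse 1.

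**Figure D4:**
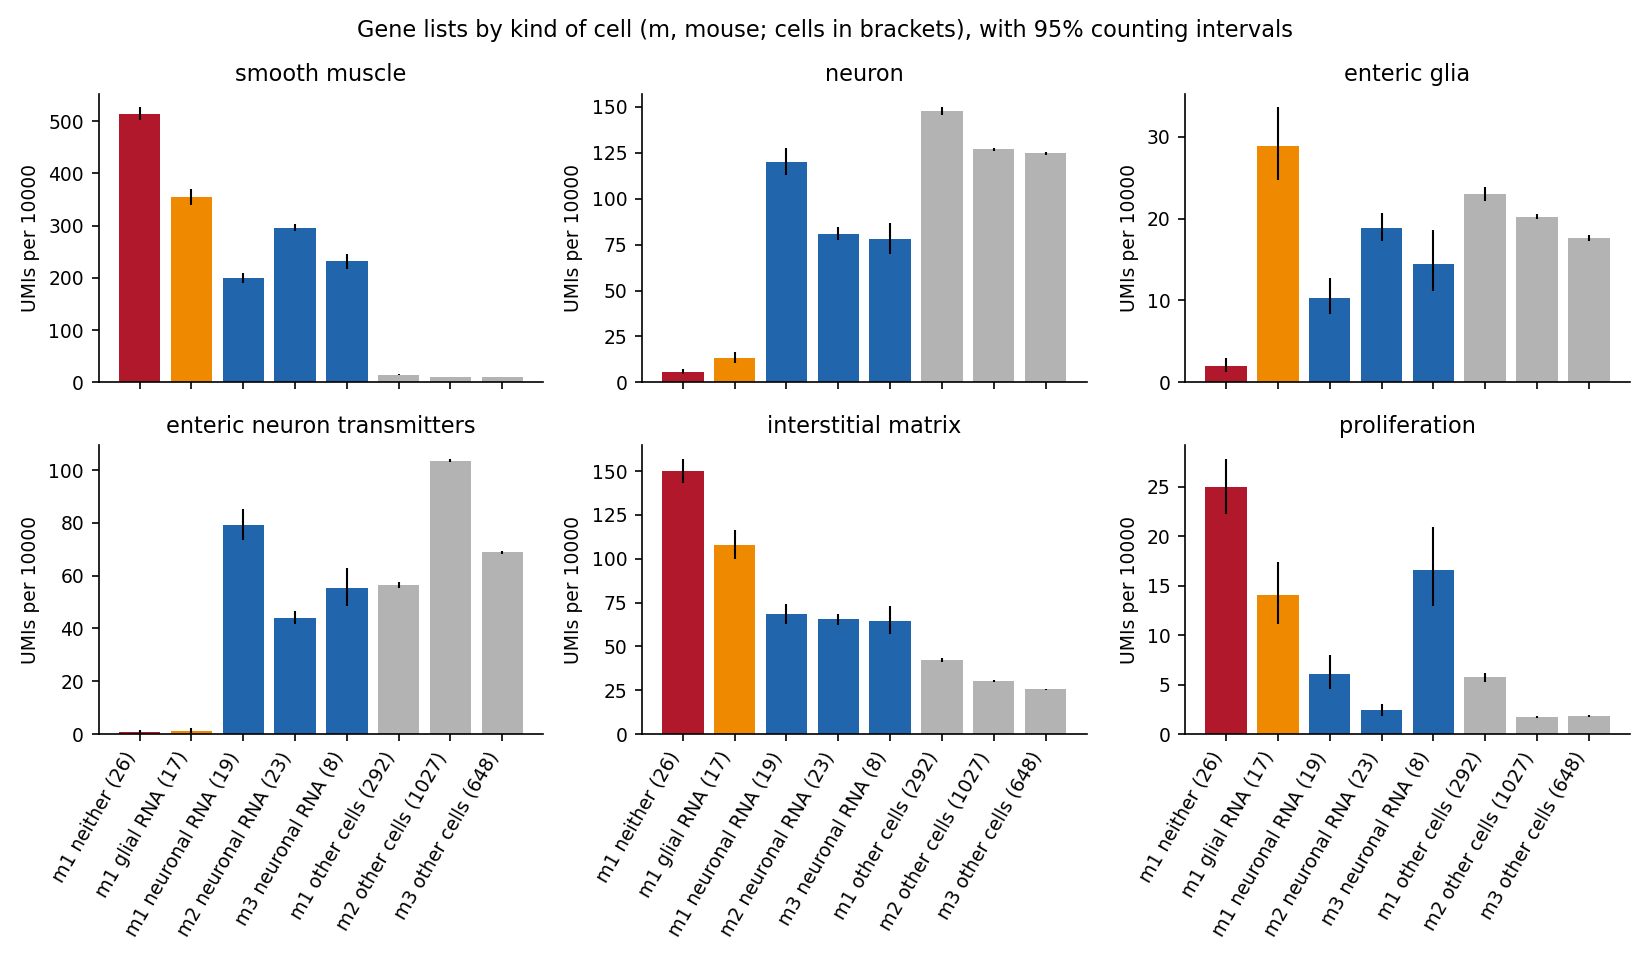
Summed UMIs per 10000 of gene lists in each kind of Acta2+ Myh11+ cell and in the other cells of each mouse, with 95% Poisson intervals and bars that start at 0. The smooth muscle list, which includes the rule genes *Acta2* and *Myh11*, runs from 199.6 to 514 over the kinds and from 10.4 to 15.1 in other cells.

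Thin and thick filament genes, the contractile machinery itself, were counted without *Acta2* and *Myh11*, on which the cells were chosen. Of those measured, 11 of 23 were higher in mouse 1, 11 of 24 in mouse 2 and 11 of 23 in mouse 3, and 2, 0 and 1 were lower. In all 3 mice 10 were higher. Among all genes, 8.44%, 6.34% and 18.1% were higher and 21.5%, 14.8% and 6.08% lower. The median fold was 1.80, 1.79 and 1.96, where that of all genes was 0.828, 0.775 and 0.786. *Tpm1*, a tropomyosin along the actin filament, stood at 86.3, 86.6 and 68.7 UMIs per 10000 against 4.74, 4.72 and 4.81. *Cald1*, which encodes caldesmon, a brake on actin and myosin, stood at 29.3, 11.4 and 14.5 against 2.71, 2.14 and 2.01. The actins that all cells use did not follow the muscle actins. *Actb* was 1.80-fold (1.70 to 1.90), 1.56-fold (1.47 to 1.66) and 1.14-fold (0.939 to 1.36), and *Actg1* was 1.002-fold (0.890 to 1.13), 0.900-fold (0.810 to 0.998) and 0.838-fold (0.624 to 1.10).

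Among measured anchorage and intermediate filament genes, which tie the filaments to the membrane and to each other, 19 of 25 were higher in mouse 1, 18 of 26 in mouse 2 and 16 of 25 in mouse 3. None was lower by 2-fold, and 15 were higher in all 3 mice. The shares of all genes were 8.44%, 6.34% and 18.1% higher and 21.5%, 14.8% and 6.08% lower. *Des*, the muscle intermediate filament desmin, stood at 12.46, 8.24 and 9.58 UMIs per 10000 against 0.710, 0.622 and 0.612. *Flna*, the actin crosslinker filamin A, was 9.77-fold (8.27 to 11.6), 8.70-fold (7.50 to 10.1) and 9.96-fold (7.37 to 13.2). *Vim*, the intermediate filament of mesenchyme and glia, was 0.859-fold (0.725 to 1.01), 0.931-fold (0.819 to 1.05) and 0.875-fold (0.605 to 1.22), so desmin and vimentin did not go together.

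Of the measured genes that control contraction, 10 of 19 were higher in mouse 1, 8 of 19 in mouse 2 and 7 of 18 in mouse 3, and 1, 0 and 1 were lower. Among all genes, 8.44%, 6.34% and 18.1% were higher and 21.5%, 14.8% and 6.08% lower. *Ppp1r12a*, the targeting subunit of the myosin phosphatase that reverses the kinase, was 8.96-fold (7.28 to 11.1), 3.87-fold (3.13 to 4.73) and 3.20-fold (1.74 to 5.41). *Ppp1r14a*, the inhibitor of that phosphatase, had 62, 38 and 2 UMIs and was 16.8-fold (9.71 to 30.7), 12.03-fold (8.12 to 17.5) and 5.72-fold (0.675 to 21.7). *Irag1*, a target of the cGMP kinase at the calcium store, was 44.3-fold (17.7 to 142), 45.6-fold (24.1 to 87.0) and 14.9-fold (1.69 to 61.2). *Gucy1a1*, a subunit of the nitric oxide receptor, was instead 0.399-fold (0.223 to 0.665), 0.511-fold (0.244 to 0.944) and 0.545-fold (0.0658 to 1.98). By the 2-fold measure it was lower in mouse 1 alone.

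Calcium and potassium handling genes set how readily the muscle cell fires. Of those measured, 9 of 18 were higher in mouse 1, 6 of 21 in mouse 2 and 7 of 20 in mouse 3, and 1, 3 and 1 genes were lower, with 4 higher in every mouse. Over all genes, 8.44%, 6.34% and 18.1% were higher and 21.5%, 14.8% and 6.08% lower. *Cacna1c*, the pore of the L-type calcium channel, had 26, 17 and 2 UMIs and was 5.99-fold (3.22 to 11.3), 3.73-fold (2.13 to 6.15) and 2.81-fold (0.336 to 10.4). *Ryr2*, a calcium release channel of the internal store, was 3.59-fold (2.11 to 6.04), 0.567-fold (0.258 to 1.08) and 0.775-fold (0.0935 to 2.82).

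Of 22 receptors for neural and endothelin signals, few had enough UMIs. Of those that had, 2 of 6 were higher in mouse 1, 3 of 11 in mouse 2 and 3 of 9 in mouse 3, and 2, 1 and 1 were lower, where 8.44%, 6.34% and 18.1% of all genes were higher and 21.5%, 14.8% and 6.08% lower. *Chrm2*, a muscarinic receptor of gut muscle, was the gene higher in every mouse, at 3.82 against 0.454 in mouse 1, 1.51 against 0.550 in mouse 2 and 1.17 against 0.527 in mouse 3. The call in mouse 3, where 0 UMIs allow up to 0.701, rests on few UMIs. In mouse 1 *Chrm2* stood at 5.22 (4.04 to 6.63) in the cells with neither RNA, at 4.96 (3.32 to 7.12) in those with glial RNA and at 0.940 (0.406 to 1.85) in those with neuronal RNA. *Ednrb* itself stood at 0.919 against 2.02 in mouse 1, 1.47 against 2.57 in mouse 2 and 0.467 against 1.99 in mouse 3. *Ednra*, the endothelin A receptor, had 5, 1 and 0 UMIs in the Acta2+ Myh11+ cells, too few to compare.

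Transcription factors of smooth muscle and gut mesenchyme had some higher and some lower members. Of those measured, 9 of 17 were higher in mouse 1, 5 of 18 in mouse 2 and 5 of 15 in mouse 3, and 1, 1 and 2 were lower, where 8.44%, 6.34% and 18.1% of all genes were higher and 21.5%, 14.8% and 6.08% lower. Of 13 measured in every mouse, 1 was higher in all, *Meis2*, a homeobox gene, at 3.16, 1.84 and 1.63 UMIs per 10000 against 0.104, 0.0674 and 0.0848. *Hand1*, a factor of lateral mesoderm, had 32, 8 and 1 UMIs and was 24.6-fold (10.1 to 72.0) in mouse 1 and 12.2-fold (4.74 to 27.8) in mouse 2. Its relative *Hand2*, which enteric neurons need, stood at 1.54 against 4.18 in mouse 1, 3.54 against 5.19 in mouse 2 and 2.34 against 5.26 in mouse 3. *Nkx2-3*, a homeobox gene of gut mesoderm, had 17, 6 and 0 UMIs, against 6, 15 and 7 in all other cells.

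Of measured genes of costameres, caveolae and junctions, which couple muscle cells to matrix and to each other, 10 of 19 were higher in mouse 1, 12 of 23 in mouse 2 and 13 of 22 in mouse 3, and 2, 1 and 1 were lower. Over all genes, 8.44%, 6.34% and 18.1% were higher and 21.5%, 14.8% and 6.08% lower. *Cav1*, the coat protein of caveolae, was 27.3-fold (14.7 to 55.3), 12.4-fold (6.25 to 23.1) and 7.83-fold (0.915 to 30.3). *Gja1*, the gap junction protein connexin 43, was 3.67-fold (2.21 to 6.03), 5.58-fold (3.08 to 9.47) and 16.8-fold (5.92 to 39.1). *Itga5*, a fibronectin receptor subunit, was 17.9-fold (8.03 to 45.0), 16.3-fold (8.26 to 30.6) and 8.27-fold (0.964 to 32.1), and its ligand *Fn1*, fibronectin, was 21.0-fold (10.8 to 44.7), 14.6-fold (8.83 to 23.5) and 17.3-fold (5.35 to 43.6).

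Some of the matrix genes, which build the sheath and the collagen between muscle cells, were among the higher ones in every mouse. The shares of all genes were 8.44%, 6.34% and 18.1% higher and 21.5%, 14.8% and 6.08% lower. Of the basement membrane list, in which *Hspg2* was not listed, 6 of 13 were higher in mouse 1, 5 of 17 in mouse 2 and 10 of 17 in mouse 3, and 2, 1 and 0 were lower. *Col4a1*, a collagen of basement membranes, stood at 7.54, 4.10 and 6.54 UMIs per 10000 against 1.72, 1.01 and 0.851. Of the interstitial matrix list, 17 of 26 were higher in mouse 1, 18 of 27 in mouse 2 and 17 of 25 in mouse 3, and none was lower by 2-fold. *Col3a1*, a fibrillar collagen, stood at 20.6, 8.81 and 7.24 against 4.29, 1.86 and 1.31, and *Sparcl1*, a secreted matrix protein, at 14.2, 8.92 and 4.44 against 0.630, 0.523 and 0.559.

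**Figure D5:**
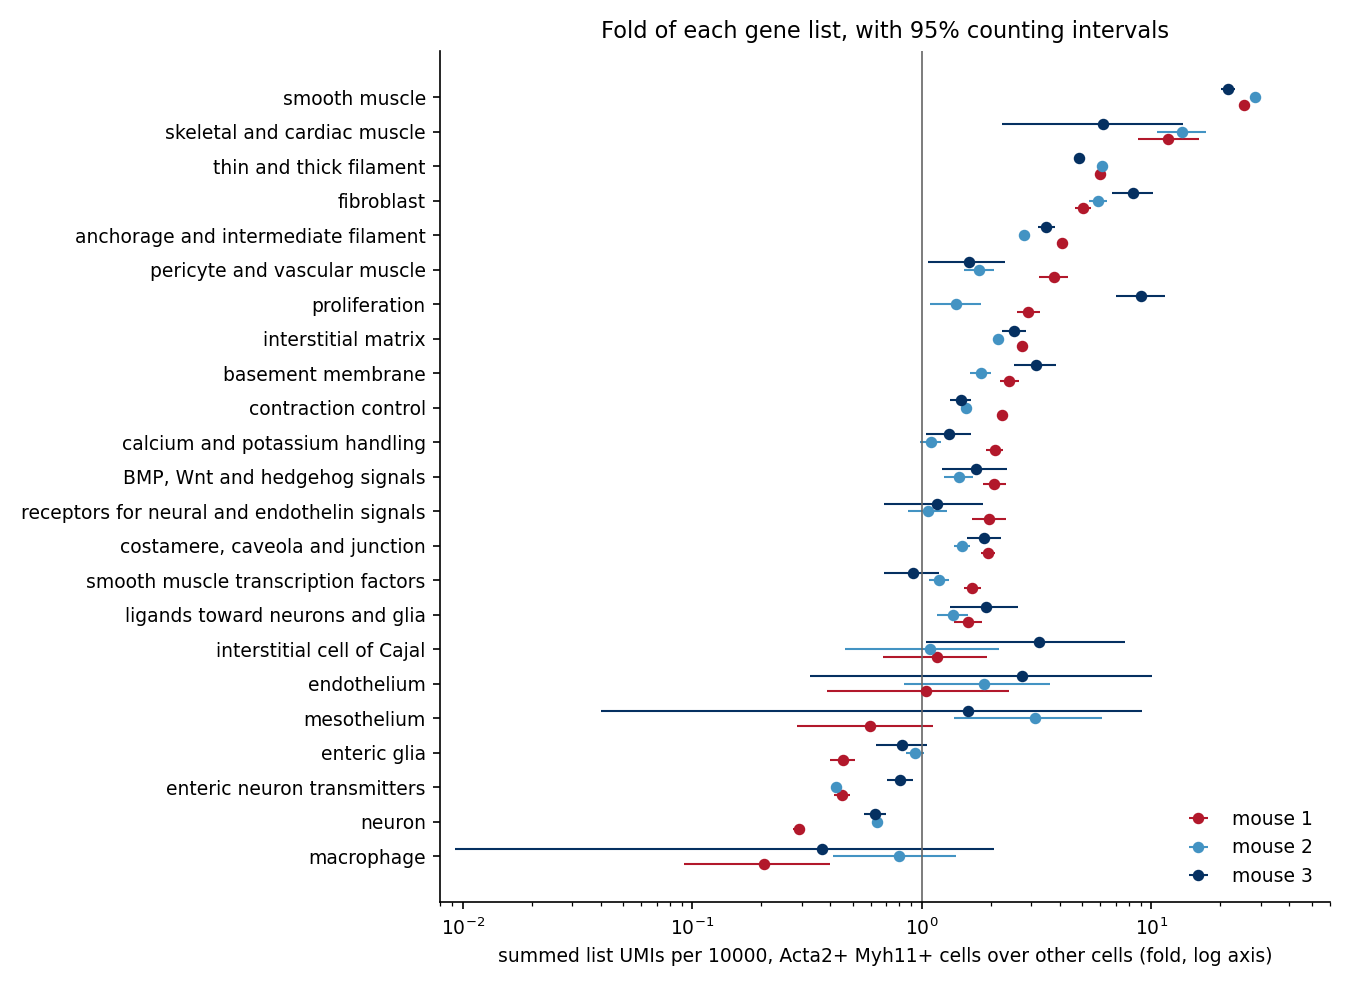
Fold of the summed UMIs per 10000 of each gene list in Acta2+ Myh11+ cells over other cells of the same mouse (log axis), with 95% intervals from the UMIs, and without the epithelium list, which had 0 UMIs in the chosen cells of mice 2 and 3. The smooth muscle list, which includes the rule genes *Acta2* and *Myh11*, lies between 21.6 and 28.4, and the neuron list at 0.292, 0.638 and 0.626 in mice 1, 2 and 3.

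Signals that gut muscle can send were mostly sparse. Of the ligands toward neurons and glia, 3 of 9 were higher in mouse 1, 4 of 15 in mouse 2 and 7 of 14 in mouse 3, and 2, 1 and 0 were lower, with none higher in all 3 mice. Of all genes 8.44%, 6.34% and 18.1% were higher and 21.5%, 14.8% and 6.08% lower. *Kitl*, the Kit ligand on which interstitial cells of Cajal depend, stood at 1.88, 1.09 and 3.04 UMIs per 10000 against 0.670, 0.619 and 0.484. *Nrtn*, the Ret ligand neurturin, had 15, 24 and 1 UMIs and was 23.1-fold (6.52 to 124), 13.8-fold (8.28 to 22.3) and 6.76-fold (0.164 to 41.8), with too few UMIs in mouse 1 to be counted. Of the BMP, Wnt and hedgehog list, 6 of 16 were higher in mouse 1, 5 of 22 in mouse 2 and 7 of 20 in mouse 3, and 3, 3 and 0 were lower, with 2 higher in all 3 mice. These were *Grem1*, a secreted BMP antagonist, at 4.34, 1.58 and 1.17 against 0.0718, 0.0575 and 0.0706, and *Rspo3*, a secreted Wnt amplifier, at 0.846, 0.941 and 0.701 against 0.175, 0.0703 and 0.0769. The level of *Rspo3* in mouse 3 equals the 0.701 that 0 UMIs allow there, so both calls in mouse 3 rest on few UMIs.

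Markers of other cells of the gut wall were read the same way. Of 14 fibroblast genes, 7, 8 and 7 had enough UMIs, and of these 5 of 7 were higher in mouse 1, 6 of 8 in mouse 2 and 5 of 7 in mouse 3. Another 1, 1 and 0 were lower. Over all genes, 8.44%, 6.34% and 18.1% were higher and 21.5%, 14.8% and 6.08% lower. The collagens *Col1a1*, *Col1a2* and *Col3a1* and the proteoglycans *Dcn* and *Lum* were higher in all 3 mice, while the defining receptor *Pdgfra* had 1, 2 and 0 UMIs and *Pi16* had 0. The fibroblast list summed to 45.6, 19.6 and 23.6 UMIs per 10000 against 9.03, 3.34 and 2.84. The pericyte and vascular muscle list summed to 12.46, 7.04 and 6.54 against 3.32, 3.95 and 4.09. Of its measured genes, 4 of 6 were higher in mouse 1, 5 of 7 in mouse 2 and 3 of 5 in mouse 3, and 0, 0 and 1 were lower. In it *Rgs5*, a brake on G protein signals, was 33.2-fold (22.7 to 49.99), 16.2-fold (12.2 to 21.3) and 25.4-fold (13.3 to 45.1), while *Higd1b* and *Cox4i2* had 0 UMIs in the chosen cells. The part of fibroblasts and pericytes in these values was not tested.

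Other lineages left few UMIs, apart from the skeletal and cardiac muscle list. The interstitial cell of Cajal list gave 20, 8 and 5 UMIs in the Acta2+ Myh11+ cells of the 3 mice, with the defining receptor *Kit* at 2, 0 and 3. The endothelial list gave 7, 9 and 2 with *Cldn5* and *Flt1* at 0, the mesothelial list 11, 9 and 1, the macrophage list 9, 12 and 1 with *Cx3cr1* and *Ptprc* at 0, and the epithelial list 5, 0 and 0 with *Epcam* at 0. Of 12 skeletal and cardiac muscle genes, *Tnnt2*, a troponin, and *Ckm*, muscle creatine kinase, had enough UMIs and were higher in every mouse. *Tnnt2* had 125, 56 and 4 UMIs and *Ckm* 26, 32 and 2, while the skeletal muscle regulators *Myod1* and *Myog* had 0.

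The 20 genes with the highest folds in mouse 1, among genes found in at least 50% of its Acta2+ Myh11+ cells, ran from 21.2- to 104-fold. All 20 were also higher by 2-fold or more in mice 2 and 3, where 6.34% and 18.1% of all genes were. The rule itself fixes this for *Acta2* and *Myh11*, both among the 20. It chose the cells in every mouse, so nothing is read from the count. With *Acta2* and *Myh11*, 8 were in the smooth muscle list and 15 in any list, and the others were *Tcea3*, *Rgs1*, *Smoc2*, *Abi3bp* and *Fbxl22*. *Tcea3*, a transcription elongation factor, stood at 1.65, 1.13 and 0.934 UMIs per 10000 against 0.0159, 0.0426 and 0.0440, or 104-fold (27.1 to 883), 26.5-fold (16.1 to 43.2) and 21.3-fold (5.42 to 60.8). *Smoc2*, a secreted calcium-binding matrix protein, was 49.2-fold (21.4 to 139), 19.8-fold (12.9 to 30.1) and 44.1-fold (17.3 to 99.7). The 10 genes with the lowest folds, 0.156 to 0.200, were *Tmod2*, *Resp18*, *Prph*, *Nrsn1*, *Ly6h*, *Epha5*, *Pcsk2*, *Fgf13*, *Tubb2a* and *Stmn3*. Of these *Prph*, the neuronal intermediate filament peripherin, stood at 1.62 against 9.72 in mouse 1, 2.22 against 4.999 in mouse 2 and 3.74 against 4.58 in mouse 3.

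Cell cycle genes differed between the kinds of cell in mouse 1. The 14 proliferation genes summed to 24.9 (22.3 to 27.8) UMIs per 10000 in the cells with neither RNA, 14.02 (11.1 to 17.4) in those with glial RNA and 6.11 (4.57 to 8.02) in those with neuronal RNA, against 5.72 in other cells. Cells with UMIs of at least 4 of the 14 genes were 14 of 26 (53.8%, 33.4% to 73.4%), 4 of 17 (23.5%, 6.81% to 49.9%) and 2 of 19 (10.5%, 1.30% to 33.1%). Among other cells of mouse 1 they were 38 of 292 (13.01%, 9.38% to 17.4%). With every cell thinned to 2000 UMIs, for which no cell was too shallow, they were 12 of 26, 4 of 17, 1 of 19 and 23 of 292. *Top2a*, which untangles DNA before division, stood at 5.53 (4.32 to 6.97), 3.08 (1.82 to 4.86) and 1.65 (0.900 to 2.76) in the 3 kinds. In mouse 2 the list was at a fold of 1.42 (1.09 to 1.82), but 1 cell held 31 of its 64 UMIs, and without that cell the fold was 0.787 (0.540 to 1.11). There 2 of 23 cells held UMIs of at least 4 genes, and 0 of 23 did after thinning, against 62 and 9 of 1027 other cells. In mouse 3 the fold was 9.02 (6.996 to 11.5), and 6.44 (4.598 to 8.79) without the cell that held 30 of its 71 UMIs. There 3 of 8 cells held UMIs of at least 4 genes, and 2 of 8 did after thinning, against 47 and 6 of 648 other cells.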

How the data were processed

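Cells of 3 *Ednrb*-/- mice (1 group, 1 10x Chromium v3.1 library each) were used. Per the study's methods, the authors aligned reads to mm10 with Cell Ranger (version not given in the sources used here), kept cells with 1500 to 5000 genes and under 12.5% mitochondrial reads, merged the mice, and removed non-neuronal cells and a set of genes. The deposited values are natural log values, ln(1 + UMIs per 10000). Whole UMIs were recovered from them for 100% of values above 0 and of cell totals (tolerance 1e-06). A few symbols that differed between mice were joined (4 pairs), which left 33349 genes.

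Levels are summed UMIs per 10000 UMIs with exact Poisson intervals, shares have Clopper-Pearson intervals, and folds have exact conditional binomial intervals (95%, counting error only). UMIs in Acta2+ Myh11+ cells numbered 271990, 265648 and 42814, so that 3 UMIs, the most that a count of 0 allows, equal 0.110, 0.113 and 0.701 per 10000. The rule was applied to every cell, and other cells of the same mouse served as the comparison. There was 1 group, so no condition was compared, and cells are not replicates, so no test was made. Genes were named from fixed lists, and as the 20 highest and 10 lowest folds in mouse 1 among genes with at least 20 UMIs that 50% of the cells on the high side held. The 10 genes most variable between the chosen cells of mouse 1 were also ranked. The members and lists were chosen with earlier results of these data known. Doublets were left in, and calls by Scrublet within each mouse (scanpy 1.11.5, expected rate 6%) marked 11, 4 and 5 cells. Other thresholds, depth thinned to 2000 UMIs, other UMI minimums and each mouse left out were tried. Scripts ran under Python 3.11.15 with scipy 1.17.1, numpy 2.4.6 and pandas 2.3.3 and were tested on simulated data.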

Additional observations from a re-analysis of the deposited data

How the results depend on the processing

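No paired analysis was possible because there was 1 group, so no replicate number is shared between groups. The folds of chosen over other cells were taken within each mouse. The mean share of Acta2+ Myh11+ cells, 6.97%, ran from 5.05% to 9.67% under other thresholds, without called doublets, with at least 1500 genes per cell, or without cells of shared barcodes (added after the data were seen), and from 1.70% to 9.85% with 1 mouse left out. The mean log2 fold of the smooth muscle list, 4.59, was 4.37 with the *Myh11* threshold alone, 4.28 with cells thinned to 2000 UMIs and 4.26 as a mean over cells, and 4.52 to 4.67 with 1 mouse left out. The cause of these moves was not tested. That of the neuron list, -1.03 ± 0.64 (SD, n = 3), ran from -1.41 to -0.66 over the settings and from -1.23 to -0.66 with 1 mouse left out. The log2 ratio of median depths, -0.46, ran from -0.54 to -0.10, and from -0.74 to 0.01 with 1 mouse left out. It was 0.01 without mouse 3. Of the genes in mouse 1, 753 were higher. This count was 473 with thinned cells, 329 at a minimum of 50 UMIs and 2035 at a minimum of 1 UMI, with 6048, 5385 and 16159 genes measured in place of 8924. Lower were 1919 genes, and 1051 at a minimum of 50 UMIs. Over 360 values of 40 named genes under other settings, 283 moved by no more than the error and 77 by more. A change of direction was looked for only in genes with a difference of 2-fold or more in the main setting, and 0 were found. Of 120 list genes higher in mouse 1, 111 to 120 remained so and 0 fell below a fold of 1. Of 64 lower ones, 45 to 64 remained so, and 3 rose above a fold of 1 with thinned cells. A count of 0 was taken as 3 UMIs there. Members below the neuron cut numbered 45 in mouse 1 under the looser and 39 under the stricter thresholds, with 0 in mice 2 and 3 under both. With the *Myh11* threshold alone there was 1 in mouse 2. The proliferation list without the cell that held most of it, tried after the data were seen, was at a fold of 2.68, 0.787 and 6.44 in the 3 mice in place of 2.92, 1.42 and 9.02. Depth limits mouse 3 most, where 8 cells gave 42814 UMIs.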

Other observations

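Among genes ranked by how unevenly the Acta2+ Myh11+ cells of mouse 1 held them, *Eln*, which encodes elastin, came first. The ratio of variance to mean of its thinned UMIs was 35.1, against 29.8 for *Gal*, the next of the ranking. Of 241 *Eln* UMIs in the 62 cells, 88.8% lay in 2 cells, which held 126 and 88 of them. These cells had 6121 and 3507 UMIs in all and neither neuronal nor glial RNA.

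The 2 cells were chosen after their values were seen, so what follows is a description. *Acta2* stood at 123 UMIs per 10000 in them and 77.8 in the other 60 Acta2+ Myh11+ cells of mouse 1, and *Tagln*, an actin-binding protein, at 159.9 and 63.1. *Myh11* stood at 51.9 and 56.3. *Actg2*, the enteric actin, had 3 UMIs in both cells together, or 3.12 per 10000 against 38.2, and *Mylk* stood at 18.7 against 64.6. *Rgs5* had 0 UMIs in the 2 cells and stood at 8.50 in the other 60. *Grem1*, *Npnt*, *Foxf1*, *Hand1* and *Nkx2-3* also had 0 UMIs in the 2 cells. In the other 60, *Foxf1*, *Hand1* and *Nkx2-3* stood at 1.03, 1.22 and 0.648 and were found in 17, 21 and 13 cells. At such levels, 0 UMIs in 2 cells do not show absence. *Myocd* had 2 UMIs in the 2 cells, or 2.08 per 10000 against 0.839. *Notch3*, a receptor of vascular muscle and pericytes, had 4 and 1 UMIs in them and 0 in the other 60. *Abcc9*, of the same pericyte list, had 0 in them and 35 in the other 60.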
